A study of Mus musculus and Homo sapiens with 18 samples.

Results

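The smooth muscle and actin contractile genes followed here are 10 genes listed by symbol: Acta2, Tagln, Cnn1, Cnn2, Myl9, Tpm1, Tpm2, Tpm4, Actn1 and Srf. All 10 were present among the 46882 genes counted in mouse lens, the 54838 genes counted in cultures that were turned from mouse neural stem cells into cells resembling lens progenitors (NLPCs) and, in upper case, the 60880 genes counted in HLE-B3 cells, an immortalized line of human lens epithelium. RNA-seq of each system held 3 control and 3 deletion libraries, and the question put to these genes was how their RNA differed when Qk (human QKI), which encodes an RNA-binding protein of the STAR family, was deleted. The lens groups were Nestin-CreERT2;QkL/+ mice (Ctrl) and Nestin-CreERT2;QkL/L mice (Qk-iCKO), in both of which the Nestin promoter drives the inducible Cre, both given tamoxifen at P7 and P8 and both dissected at P17-19, so that Ctrl lenses carried Cre and a floxed allele too. NLPCs were made from neural stem cells of the whole brains of newborn Nestin-CreERT2;QkL/L mice with Noggin and then bFGF, BMP4 and BMP7, and the Qk-/- cells had been treated with 100 nM 4-hydroxytamoxifen. HLE-B3 QKI KO cells were obtained with a lentiviral CRISPR-Cas9 vector and puromycin selection and are not stated to be a single clone.

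Contractile filaments pair actin with myosin, and smooth muscle builds them from its own isoforms. Acta2 encodes smooth muscle alpha-actin, Tagln (SM22-alpha) and Cnn1 (calponin 1) encode actin-binding proteins of the same cells, and Myl9 encodes a regulatory light chain of smooth muscle and non-muscle myosin. Tpm1, Tpm2 and Tpm4 encode tropomyosins, the coiled coils that lie along actin filaments, while Cnn2 encodes a calponin and Actn1 an actin crosslinker found in many cell types. Srf encodes serum response factor, which binds the CArG box in the promoters of many such genes together with cofactors of the myocardin family or the ternary complex (ELK) family. In the lens, TGF-beta can turn epithelial cells into contractile, ACTA2-positive cells, a change known from fibrotic cataract.

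The CArG box, a stretch that starts with CC, ends with GG and has only A or T between, reads as a CArG box on either strand, so 1 search covers both. Promoter windows of 300 bases, from 250 bases before to 50 bases after a start site, were at hand for 9 of the 10 mouse genes from RefSeq (GRCm38.p6), and 3 of these 9 held a box: Myl9, Cnn2 and Srf. Among all 32851 mouse windows, 1.63% held one. In human windows of the same length, placed at the GENCODE start sites on GRCh37, 1.21% of 19553 held a box. Of the human members with a box, CNN2 and SRF are given here, and the list is not complete. The 200 mouse bases before the start site are shown for these 3 genes because Myl9 and Cnn2 are the members whose RNA rose in the lens and Srf encodes the factor that reads the box, with 150 human bases for CNN2 and SRF. The boxes are in capitals.
Mouse Myl9 (chr2:156775264-156775463, plus strand): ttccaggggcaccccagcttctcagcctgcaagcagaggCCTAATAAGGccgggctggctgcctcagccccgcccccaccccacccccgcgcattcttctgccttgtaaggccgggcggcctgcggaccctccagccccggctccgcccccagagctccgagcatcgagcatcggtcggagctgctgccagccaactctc
Mouse Cnn2 (chr10:79988400-79988599, plus strand): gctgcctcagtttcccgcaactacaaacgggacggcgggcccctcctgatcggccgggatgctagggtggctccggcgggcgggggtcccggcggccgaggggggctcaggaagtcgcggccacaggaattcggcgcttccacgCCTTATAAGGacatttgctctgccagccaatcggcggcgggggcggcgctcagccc
Mouse Srf (chr17:46556163-46556362, minus strand): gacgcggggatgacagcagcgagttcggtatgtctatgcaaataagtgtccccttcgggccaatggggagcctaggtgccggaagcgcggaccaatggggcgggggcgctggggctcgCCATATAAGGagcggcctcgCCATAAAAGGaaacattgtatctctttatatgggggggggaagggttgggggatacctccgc
Human CNN2 (chr19:1026457-1026606, plus strand): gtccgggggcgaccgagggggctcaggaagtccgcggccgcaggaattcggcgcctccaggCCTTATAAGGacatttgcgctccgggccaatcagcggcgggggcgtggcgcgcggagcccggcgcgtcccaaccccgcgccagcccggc
Human SRF (chr6:43138857-43139006, plus strand): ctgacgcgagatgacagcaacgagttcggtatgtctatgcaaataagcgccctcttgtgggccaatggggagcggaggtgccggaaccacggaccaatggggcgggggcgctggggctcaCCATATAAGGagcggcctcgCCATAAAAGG
Counted back from the start site, the box began at base -161 in mouse Myl9, at -56 in mouse Cnn2 and at -89 in human CNN2. Srf held a pair of boxes in both species, beginning at -82 and -62 in mouse and at -30 and -10 in human. The windows of Acta2, Cnn1, Tpm1, Tpm2, Tpm4 and Actn1 held no such letters in either species, which says nothing of boxes further away or with other letters.

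A second motif that bears on these libraries is the response element of the deleted protein, searched as ACTAAC or ACTAAT on the mRNA strand of the longest coding transcript. It occurred in 4 of the 10 mouse genes, with 3 copies in Tpm4 and 2 each in Cnn1, Myl9 and Tpm1, where 43.3% of 21877 mouse genes held at least 1. Of the 10 human genes, TPM4 alone held it, with 1 copy, where 45.0% of 19807 human genes did.

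Total counts per library lay between 10319320 and 16425331 in the lens, between 28154202 and 68243360 in NLPCs and between 69190864 and 81384471 in HLE-B3 cells. Levels are given as CPM, which are counts scaled to a common library size, here after TMM normalization in edgeR. The TMM factor of Qk-iCKO lens 1 was 1.48, and those of the remaining lenses were 0.889 to 0.962. The deletion itself was seen in HLE-B3 cells, where QKI was at 257 to 263 CPM in WT and 100.2 to 105 CPM in QKI KO (adjusted p = 1.85e-11). In the lens Qk was at 116 to 127 CPM in Ctrl and 86.7 to 106 CPM in Qk-iCKO (adjusted p = 0.20). In NLPCs it was higher in the libraries labelled Qk-/- (3083 to 3593 CPM) than in WT (2440 to 2670 CPM; edgeR, adjusted p = 0.027), so gene counts do not show the loss there. The study reports loss of Qki protein in these cells by staining, and its allele floxes only part of the gene. Only the lens expressed the fibre markers in quantity, with 98210 to 191500 CPM over 7 genes. NLPCs had 0.791 to 4.20 CPM and HLE-B3 cells 1.53 to 5.63 CPM over these genes. Both cultured systems expressed Pax6 of the epithelial markers (80.0 to 155 CPM), with Foxe3 at 0.136 CPM or less. All 5 epithelial markers together summed to 97.1 to 154 CPM in NLPCs and to 736 to 1331 CPM in HLE-B3 cells. The study describes the neural stem cells behind the NLPCs as high in Pax6 too.

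The 3 systems differed in how much of these RNAs they held. Per kilobase of merged exons, HLE-B3 WT cells were highest in TPM2 (236 CPM per kb), TPM4 (215), TAGLN (193), TPM1 (154) and MYL9 (117), and lowest in SRF (11.8) and CNN1 (3.23). WT NLPCs were highest in Tpm4 (68.1 CPM per kb), then Tpm1 (11.2), Srf (10.99) and Actn1 (7.89), whereas Tagln (0.127), Cnn1 (0.0873) and Acta2 (0.00801) were close to 0. Ctrl lenses were highest in Tpm4 (43.4 CPM per kb) and Acta2 (22.5), followed by Myl9 (4.10), Tpm1 (3.66), Srf (3.30) and Actn1 (2.68), and held little Tagln (0.0603) and almost no Cnn1 (0.00867). In the Ctrl lenses, the neighbours Myl9, Tpm1 and Srf in this order lay closer together than the spread of Tpm1 over the 3 lenses allows to rank, and so did Tpm1 and Srf in NLPCs. Each of the 3 tables was normalized separately, so only the order within a system is meant. That order also depends on the merged exons, which span all annotated transcripts: 14700 bases for TPM1 and 3183 for TPM2. By CPM alone, HLE-B3 WT cells were highest in TPM4 (2658), TPM1 (2267) and TAGLN (1261), with TPM2 at 752.

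**Figure D1:**
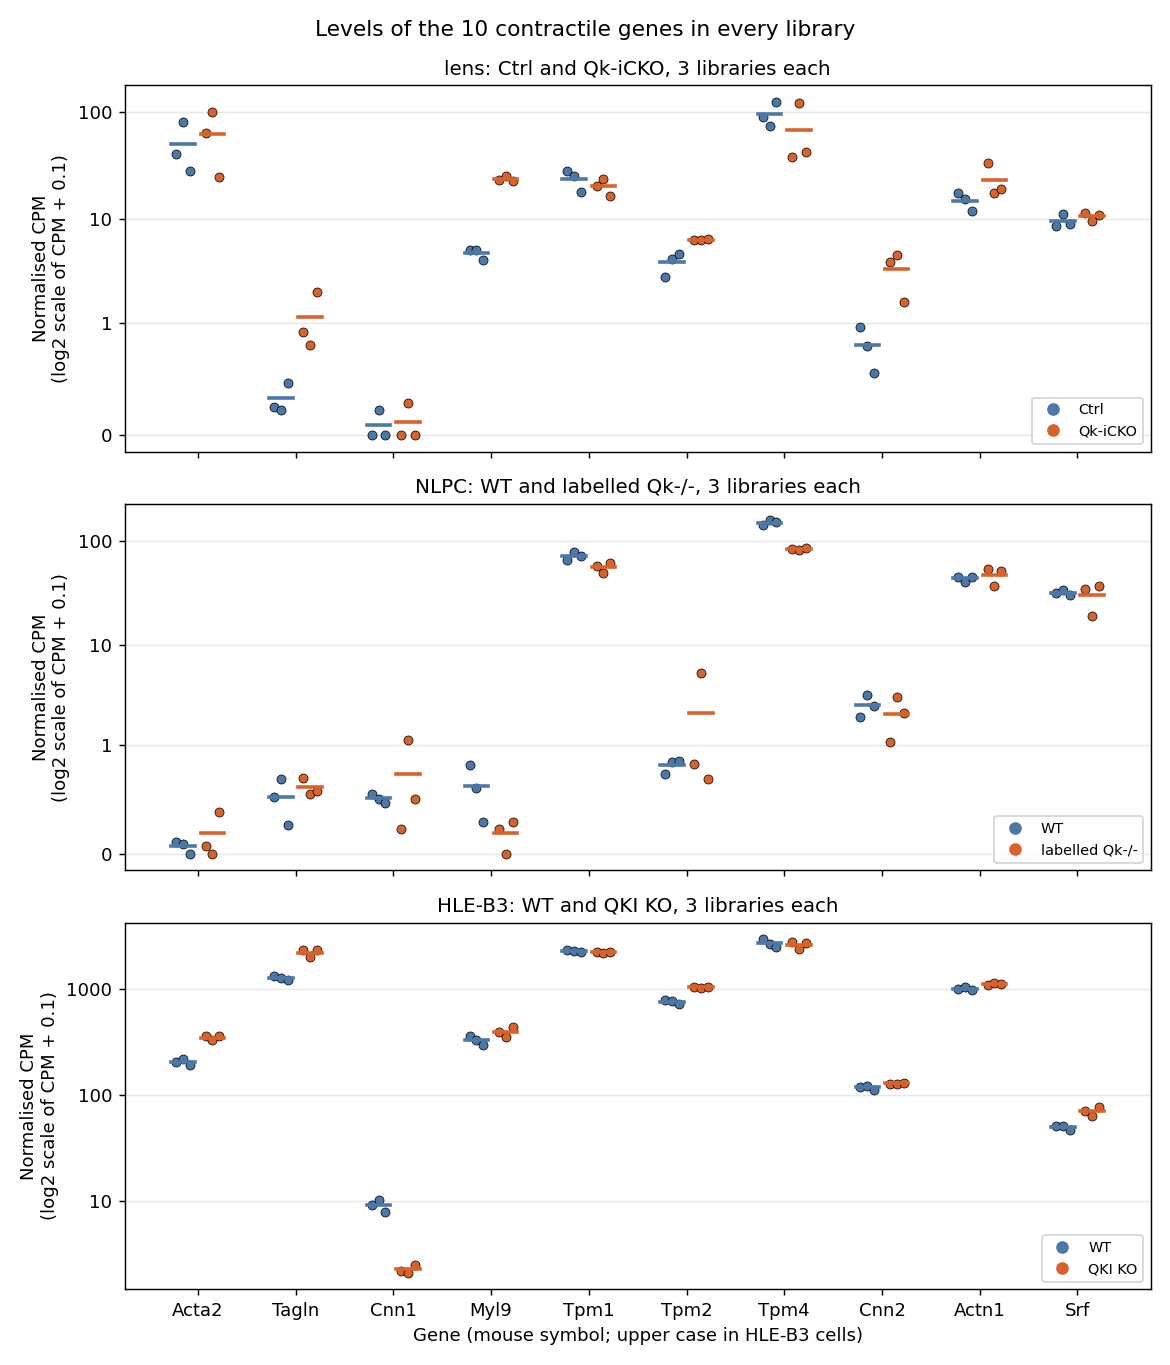
Normalised CPM of the 10 genes in each of the 18 libraries (points; bars are group means, n = 3), on a log2 scale of CPM + 0.1. HLE-B3 cells hold all 10 RNAs at 2.07 CPM or more, whereas Tagln and Cnn1 are at 2.02 CPM or less in every lens and NLPC library.

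In the lens, Myl9 and Cnn2 rose after deletion, and no other member passed the test. Of the 10 genes, 8 had enough counts to be tested, and 2 of the 8 had an adjusted p under 0.05 in edgeR's quasi-likelihood test. Both were higher in Qk-iCKO, and Cnn2 had enough counts only through the Qk-iCKO lenses. Over all 12201 genes tested in the lens, 12.3% passed, 8.38% with a higher and 3.88% with a lower level. The median log2 fold change of the 8 genes was 0.50, where that of all genes tested was 0.01.

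Myl9, the myosin light chain, was at 5.13, 5.05 and 4.11 CPM in the Ctrl lenses and at 23.3, 25.2 and 22.8 CPM in the Qk-iCKO lenses. The groups did not overlap and each was tight, with means of 4.76 ± 0.567 and 23.8 ± 1.28 CPM (SD, n = 3), a 4.99-fold difference. On the log2 scale the change was 2.32 ± 0.15 (SE; edgeR, adjusted p = 0.000279), and it stayed between 2.21 and 2.36 with any lens left out. Mouse Myl9 lies on the plus strand of chromosome 2 (chr2:156775420-156781658, GRCm38).

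Cnn2, the calponin of many cell types, was at 0.910, 0.569 and 0.274 CPM in the Ctrl lenses and at 3.92, 4.54 and 1.61 CPM in the Qk-iCKO lenses. All Qk-iCKO lenses were above all Ctrl lenses, at a low level: the counts behind these values were 11, 8 and 4 against 64, 47 and 16. The Ctrl counts alone would not have passed the filter on low counts, so Cnn2 entered the test through the group where it is high. The log2 fold change was 2.54 ± 0.54 (SE; edgeR, adjusted p = 0.0234). This call was lost with Ctrl lens 1, 2 or 3 or Qk-iCKO lens 1 or 2 left out (edgeR, adjusted p = 0.0561, 0.0885, 0.0822, 0.0551 and 0.0626), with fold changes between 2.18 and 2.96.

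Of the other smooth muscle genes, Acta2 was not called, and Tagln and Cnn1 had too few counts for the main test. Acta2 was at 40.0, 80.2 and 28.2 CPM in Ctrl and at 63.0, 99.5 and 24.7 CPM in Qk-iCKO lenses, so that the lenses of either group spanned nearly the whole range (log2 fold change 0.34 ± 0.54; edgeR, adjusted p = 0.73). Tagln had 1, 1 and 3 counts in the Ctrl lenses and 13, 6 and 20 in the Qk-iCKO lenses, too few to be tested under the filter on low counts. The ratio of its summed counts per depth was 8.68, with a 95% counting interval of 3.42 to 28.2 that leaves out the spread between lenses. In a fit of every gene with at least 1 count, its log2 fold change was 3.07 (edgeR, adjusted p = 0.00641), and its level of 0.580 to 2.02 CPM in Qk-iCKO lenses was still far below that of Acta2. Cnn1 had 1 count in all Ctrl lenses together and 1 in all Qk-iCKO lenses.

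Among the tropomyosins, Tpm2 was at 2.81, 4.20 and 4.66 CPM in Ctrl and at 6.37, 6.38 and 6.45 CPM in Qk-iCKO lenses. Every Qk-iCKO lens was above every Ctrl lens, where 35.3% of the genes tested had separate groups in either direction, and its log2 fold change of 0.71 ± 0.23 missed the threshold (edgeR, adjusted p = 0.0856). Tpm1 ranged from 17.9 to 28.0 CPM in Ctrl and from 16.5 to 23.6 CPM in Qk-iCKO lenses (log2 fold change -0.23 ± 0.21). Tpm4 was at 37.9 and 41.7 CPM in Qk-iCKO lenses 1 and 3 but at 121 CPM in lens 2, against 73.5 to 124 CPM in Ctrl (log2 fold change -0.52 ± 0.45; edgeR, adjusted p = 0.499). Without Qk-iCKO lens 2 its log2 fold change was -1.27 (edgeR, adjusted p = 0.0303), so that lens decides the call for Tpm4.

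Actn1, the actin crosslinker, was at 17.3, 15.3 and 11.9 CPM in Ctrl and at 33.4, 17.29 and 19.04 CPM in Qk-iCKO lenses. The groups did not overlap, though Qk-iCKO lens 2 lay only just above Ctrl lens 1, and the log2 fold change of 0.66 ± 0.28 did not pass (edgeR, adjusted p = 0.17). With a term for the Y-linked RNA described below, which leaves Qk-iCKO lens 1 alone against the Ctrl lenses, it was 1.18. Srf stayed between 8.60 and 11.3 CPM in all 6 lenses (log2 fold change 0.14 ± 0.16; edgeR, adjusted p = 0.60).

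**Figure D2:**
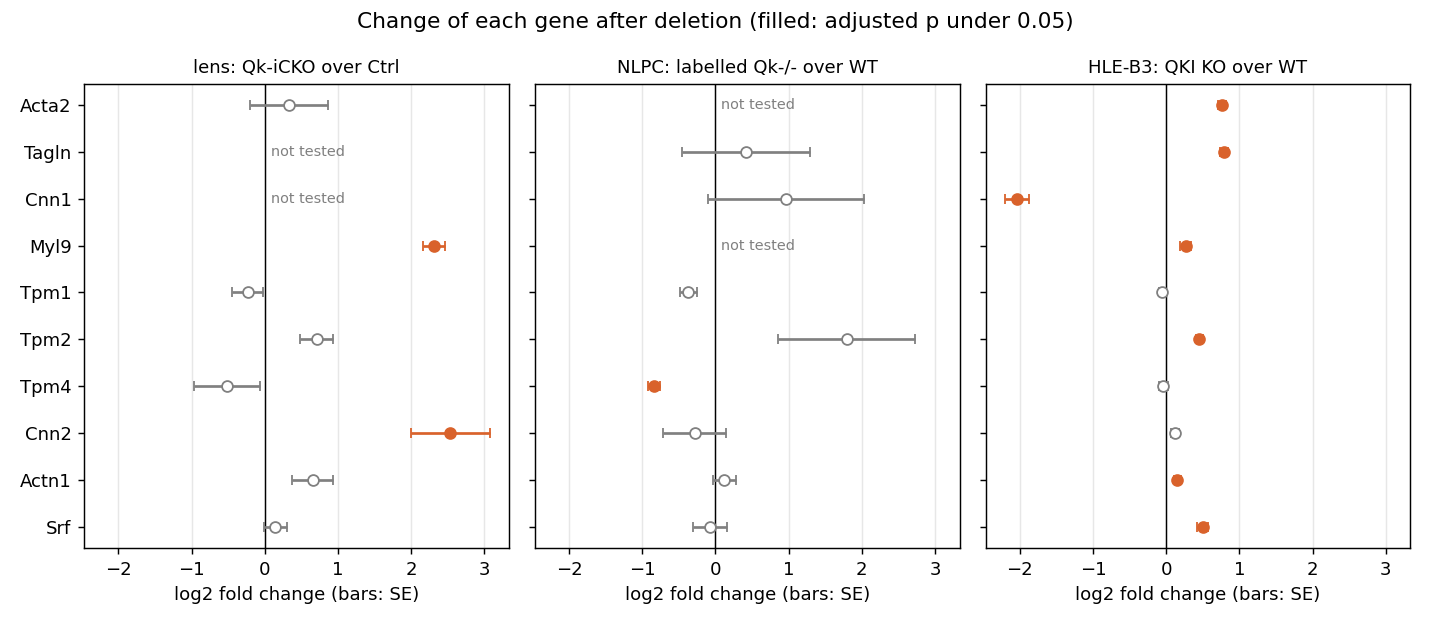
Log2 fold change of each gene after deletion in lens, NLPCs and HLE-B3 cells (bars: SE of edgeR's fit on 3 against 3 libraries; filled: adjusted p under 0.05). Filled points are Myl9 and Cnn2 in the lens, Tpm4 in NLPCs and 7 genes in HLE-B3 cells, with CNN1 as the 1 that fell there.

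Other genes of the same pathway were read from lists, to be set against the 12.3% of all genes tested in the lens that passed. Of 12 further targets of SRF, 10 were tested in the lens and 6 rose, with none lower, and all 10 fold changes were above 0 (median 1.72). The rises were led by the immediate early genes Fosb, Fos (log2 fold change 5.83) and Egr1 (3.97), which encode transcription factors that respond rapidly to stimulation. Fosb had 1, 0 and 1 counts in the Ctrl lenses and 153, 10 and 51 in the Qk-iCKO lenses, too few in Ctrl for a fold to be given. It is among the 10 and the 6, yet it entered the test only through the Qk-iCKO lenses and could not have come out lower. Vcl, which encodes the focal adhesion protein vinculin, rose from 7.40 to 9.82 CPM in Ctrl to 17.8 to 40.4 CPM in Qk-iCKO lenses (log2 fold change 1.76; edgeR, adjusted p = 0.0104). The count of 6 was 1 without Ctrl lens 1 or 3 and 3 without Ctrl lens 2, and lay between 5 and 7 without any 1 Qk-iCKO lens.

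No gene passed among the 5 tested of 12 other smooth muscle contractile genes, of which 1 had an unadjusted p under 0.05 upward and 1 downward, as 28.7% of all genes tested in the lens did in either direction (DESeq2 called none either). This count of 0 was 1 without Ctrl lens 3, 2 without Qk-iCKO lens 1 or 3, 3 without Qk-iCKO lens 2 and 3 with every gene kept. Likewise 0 of 11 non-muscle counterparts passed, with 4 at an unadjusted p under 0.05, 3 called by DESeq2 and 2 in the fit blocked by replicate number. Their main actin, Actb, was at 1913 to 2171 CPM in Ctrl and 1393 to 1473 CPM in Qk-iCKO lenses (log2 fold change -0.48; edgeR, adjusted p = 0.126). Of the SRF cofactors, Elk3 rose (log2 fold change 1.09; edgeR, adjusted p = 0.0372), a call lost without any 1 of the 6 lenses, while 2 cofactors passed with the replicate block. Mkl1 (MRTF-A; 0.98), Mkl2 (MRTF-B; 1.10), Elk4 (1.30) and Elk1 (-0.44) did not pass, and Myocd was at 0.605 CPM or less in every lens. Of the 5 cofactors tested, 4 had an unadjusted p under 0.05 upward and 1 downward, against the 28.7% of all genes. DESeq2 called 2 of them. Of 11 genes of the TGF-beta pathway, the receptors Tgfbr2 (log2 fold change 3.40) and Tgfbr3 (2.67) rose and none fell. That count of 2, where 12.3% of all genes tested in the lens passed, was 1 without any 1 Ctrl lens or Qk-iCKO lens 1.

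Other cells moved with the lens groups. In Qk-iCKO lenses 5 of 5 tested macrophage markers of 6 were higher, and none of the 6 was at 0 throughout. Their summed levels were 75.0 to 109.6 CPM against 1.57 to 2.95 CPM in Ctrl. All 6 together had 19, 24 and 43 counts in the Ctrl lenses, so they passed the filter on low counts mainly through the Qk-iCKO lenses. The count of 5 therefore adds nothing to the summed levels. Of 7 endothelial markers 5 were tested and 2 were higher (summed level 15.4 to 25.5 against 4.30 to 9.38 CPM), and of 6 fibroblast markers 4 were tested and 1 was higher (103.5 to 173 against 63.6 to 79.1 CPM). The 8 mural cell markers, which mark the vessel cells that use these contractile genes, summed to 27.4 to 29.1 CPM in Qk-iCKO and 21.1 to 35.6 CPM in Ctrl lenses, with 1 of 5 tested called higher. Pigment cell markers summed to 136 CPM in Qk-iCKO lens 1 and to 21.7 and 6.85 CPM in lenses 2 and 3, against 3.49 to 6.90 CPM in Ctrl. The 7 fibre markers summed to 98210, 164500 and 157200 CPM in Qk-iCKO lenses 1 to 3 and to 180600 to 191500 CPM in Ctrl. Of the 6 tested, none had a fold change above 0, 1 was called lower and 3 had an unadjusted p under 0.05 downward. Over all genes tested, 28.7% had an unadjusted p under 0.05 in either direction. Lim2 was not tested, with at most 3 counts over the Ctrl and Qk-iCKO lenses together. The 5 epithelial markers summed to 14270 to 19210 CPM against 22090 to 31570 CPM, mostly Cryab, with none of 5 called by edgeR and none at an unadjusted p under 0.05. Y-linked RNA was present in Qk-iCKO lenses 2 and 3 (102 and 93.7 CPM over 4 genes) and at 0.206 CPM or less in the other 4 lenses. With a term for it, chosen after the data were seen, the log2 fold changes of Myl9 and Cnn2 were 2.29 and 2.75. Both lenses with this RNA are Qk-iCKO, so that fit sets Qk-iCKO lens 1 alone against the Ctrl lenses. It therefore cannot adjust for Y-linked RNA. The part of these other cells in the rise of Myl9 and Cnn2 was not tested, and in whole lenses more cells of a type and more RNA per cell cannot be told apart.

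In NLPCs, Tpm4 fell and was the only member to pass the test. Of the 10 genes 8 were tested and 1 passed, where 10.7% of the 20371 genes tested did, 4.74% with a higher and 5.96% with a lower level. The median log2 fold change of the 8 was 0.02 and that of all genes was 0.04. Tpm4, the tropomyosin of non-muscle stress fibres, was at 141, 157 and 152 CPM in WT and at 83.3, 82.4 and 85.2 CPM in the libraries labelled Qk-/-. The groups were tight and far apart, with means of 150 ± 8.29 and 83.6 ± 1.41 CPM (SD, n = 3), and the log2 fold change was -0.84 ± 0.08 (SE; edgeR, adjusted p = 0.000818). With any library left out it lay between -0.90 and -0.82.

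Tpm1 went the same way by less, from 66.2, 79.0 and 72.3 CPM in WT to 57.4, 49.2 and 61.4 CPM in Qk-/-. No Qk-/- library reached the lowest WT library, which held for 35.2% of the genes tested with separate groups in either direction, and its log2 fold change of -0.37 ± 0.11 missed the threshold (edgeR, adjusted p = 0.0815; DESeq2, adjusted p = 0.0304). Tpm2 was at 0.482, 0.661 and 0.683 CPM in WT and at 0.627, 5.36 and 0.421 CPM in Qk-/-. Library Qk-/- 2 alone was high: the log2 fold change of 1.79 was -0.21 without it. The same library was the highest for Cnn1, at 1.13 CPM where the other 5 lay between 0.0716 and 0.277 CPM.

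Srf was at 31.5, 33.7 and 30.1 CPM in WT and at 34.8, 18.9 and 36.6 CPM in Qk-/-, so that library Qk-/- 2 was the lowest of all 6. Its log2 fold change was -0.07 ± 0.23 (edgeR, adjusted p = 0.867) and 0.17 without that library (edgeR, adjusted p = 0.26). Actn1 ranged from 40.5 to 45.5 CPM in WT and from 36.8 to 53.9 CPM in Qk-/- (log2 fold change 0.12 ± 0.15), and Cnn2 from 1.96 to 3.21 and from 1.08 to 3.10 CPM (-0.28 ± 0.43). Without Qk-/- 2, Actn1 passed with a log2 fold change of 0.28 (edgeR, adjusted p = 0.0461).

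The smooth muscle genes were barely present in NLPCs. Tagln had 6 to 24 counts per library (0.0872 to 0.430 CPM; log2 fold change 0.42 ± 0.88), and Acta2 had 3 counts in WT and 10 in Qk-/-, of which 9 were in library 3. Myl9 had 42, 14 and 7 counts in WT and 4, 0 and 6 in Qk-/-, too few to be tested. Per depth the highest Qk-/- library (0.101 CPM) was barely below the lowest WT library (0.1017 CPM). Its ratio of summed counts per depth was 0.197, with a 95% counting interval of 0.0903 to 0.387, and a fit of every gene gave an adjusted p of 0.477 (edgeR).

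Among their counterparts in non-muscle cells, 2 of 12 rose and 2 fell in NLPCs, where 10.7% of all genes tested passed. Myh9 and Myh14, which encode heavy chains of non-muscle myosin, rose (log2 fold changes 1.01 and 0.72), and Myh10, the heavy chain of the remaining non-muscle myosin, fell (-0.33). Cnn3, another calponin gene, fell from 927 to 1062 CPM in WT to 643 to 706 CPM in Qk-/- (log2 fold change -0.53; edgeR, adjusted p = 0.00828). Of 10 other smooth muscle genes tested none passed, with 3 at an unadjusted p under 0.05, where 26.4% of all genes were, 2 called by DESeq2 and 1 with the replicate block. The 4 calls among non-muscle counterparts were 2 to 5 with 1 library left out.

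No SRF cofactor passed in NLPCs (0 of 5 tested, none at an unadjusted p under 0.05 and none called by DESeq2), with Mkl1 at 0.14, Mkl2 at 0.09, Elk1 at 0.02, Elk3 at -0.15 and Elk4 at -0.06 and Myocd at 0.921 CPM or less. Of 11 other SRF targets 2 fell, Fos (log2 fold change -1.14; edgeR, adjusted p = 0.00146) and Cyr61 (-0.87; adjusted p = 0.0147), a matricellular protein gene. That count was 1 without any 1 WT library or Qk-/- 1, and 3 without Qk-/- 2. The TGF-beta receptors Tgfbr2 (log2 fold change 1.57) and Tgfbr3 (1.52) and the ligand Tgfb2 (0.64) rose, and Tgfbr1 fell (-0.50). These 4 calls were 2 without WT library 2 or 3 or Qk-/- library 1 or 3. Over all genes tested in NLPCs, 10.7% passed. Of the 8 mural cell markers, 6 were tested and 2 were lower (summed level 40.5 to 49.8 CPM in Qk-/-, 62.4 to 76.6 CPM in WT). Of 7 neural and glial markers 3 were lower and 1 was higher (3497 to 4055 CPM in Qk-/-, 5369 to 5845 CPM in WT). Of 6 fibroblast markers 5 were tested and 1 was lower, Pdgfra, which made up most of their sum (33.3 to 35.3 CPM in Qk-/-, 68.7 to 79.1 CPM in WT). The part of these cells in the fall of Tpm4 was not tested.

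**Figure D3:**
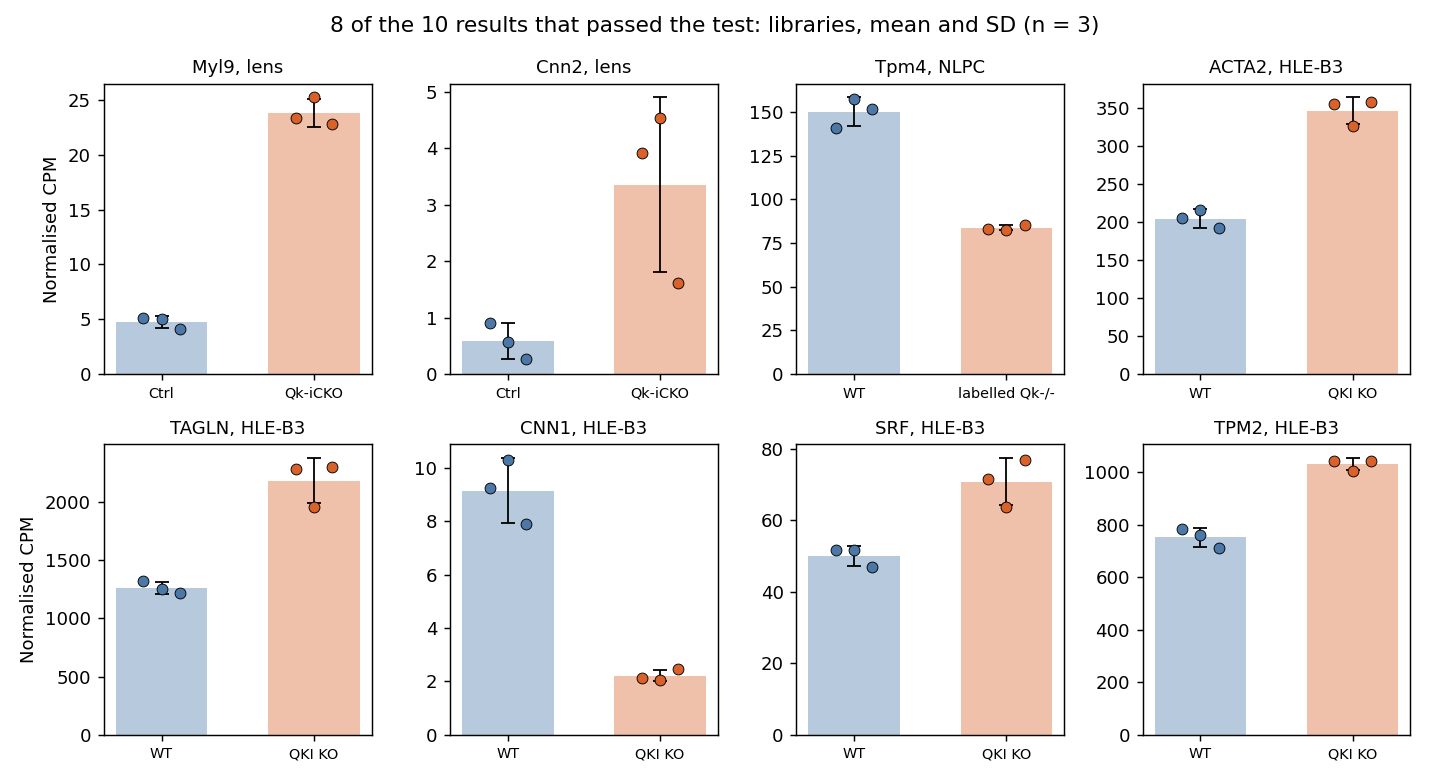
Normalised CPM of 8 of the 10 results that passed the test (points: libraries; bars and whiskers: mean and SD, n = 3; axes start at 0). In each of the 8 panels the 3 deletion libraries lie wholly above or wholly below the 3 controls, and CNN1 and Tpm4 are the ones that lie below. Left out are MYL9, whose groups overlap, and ACTN1, both in HLE-B3 cells. Groups were separate for 35.3% of all genes tested in the lens, 35.2% in NLPCs and 44.6% in HLE-B3 cells. The panels were taken from results that passed the test, so their separation adds nothing to it.

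In HLE-B3 cells most members changed, and calponin 1 went against the 6 that rose. All 10 genes were tested, 6 rose and 1 fell, where 33.3% of the 19049 genes tested passed, 17% with a higher and 16.3% with a lower level. The median log2 fold change of the 10 was 0.21, against -0.02 over all genes. At an unadjusted p under 0.05 there were 8 of the 10, and 41.3% of all genes. Leaving out 1 library gave 5 to 7 called members.

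ACTA2 was at 205, 216 and 192 CPM in WT and at 356, 326 and 357 CPM in QKI KO cells. The means were 204 ± 12.3 and 346 ± 17.3 CPM (SD, n = 3), a log2 fold change of 0.76 ± 0.06 (SE; edgeR, adjusted p = 5.78e-08). TAGLN rose by nearly the same factor from a level several times higher, with 1321, 1249 and 1214 CPM in WT and 2281, 1957 and 2301 CPM in QKI KO cells (log2 fold change 0.79 ± 0.06; edgeR, adjusted p = 3.3e-08). The groups of 8 of the 10 members were separate, where 44.6% of all genes had separate groups.

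CNN1, by contrast, fell to 2.13, 2.07 and 2.47 CPM from 9.26, 10.3 and 7.88 CPM in WT. The WT mean was 4.12-fold that of QKI KO cells (log2 fold change -2.04 ± 0.16; edgeR, adjusted p = 6.87e-08), and the change stayed between -2.13 and -1.94 with any library left out. It was the largest change of the 10 genes in this line and that of its least abundant member. MYL9 was at 358, 332 and 295 CPM in WT and at 393, 354 and 439 CPM in QKI KO cells, with overlapping groups (log2 fold change 0.27 ± 0.08; edgeR, adjusted p = 0.0133). The call for MYL9 was lost without WT library 3 or QKI KO library 3 (edgeR, adjusted p = 0.0671 and 0.094).

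Of the tropomyosins, TPM2 rose from 783, 761 and 712 CPM in WT to 1043, 1004 and 1045 CPM in QKI KO cells (log2 fold change 0.45 ± 0.05; edgeR, adjusted p = 2.29e-06). TPM1 (2222 to 2313 CPM in WT, 2161 to 2193 CPM in QKI KO) and TPM4 (2446 to 2899 and 2342 to 2746 CPM) differed by less, with separate groups for TPM1 only: their log2 fold changes were -0.06 ± 0.04 and -0.04 ± 0.06. With total counts in place of TMM, TPM1 was called lower (log2 fold change -0.11; edgeR, adjusted p = 0.0317).

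SRF itself rose from 51.6, 51.7 and 46.9 CPM in WT to 71.6, 63.8 and 76.9 CPM in QKI KO cells (log2 fold change 0.50 ± 0.08; edgeR, adjusted p = 6.42e-05). ACTN1 was at 968 to 1031 CPM in WT and 1092 to 1120 CPM in QKI KO cells, a change of 0.15 ± 0.05 on the log2 scale (edgeR, adjusted p = 0.0169). It was the smallest change called and was lost with total counts (edgeR, adjusted p = 0.127), in the fit of every gene (0.053) and without WT library 3 (0.0649) or QKI KO library 3 (0.0618). CNN2 was at 113 to 123 CPM in WT and 127 to 131 CPM in QKI KO cells (log2 fold change 0.13 ± 0.06; edgeR, adjusted p = 0.107).

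The wider lists were mixed in the same way, beside the 33.3% of all genes tested in HLE-B3 cells that passed. Of 10 other smooth muscle contractile genes tested, 6 rose and 2 fell, and the largest changes were rises of TGFB1I1 (log2 fold change 1.11; HIC-5, a focal adhesion protein), SYNPO2 (1.08; an actin-bundling protein of the Z-disc), ACTG2 (0.93; smooth muscle gamma-actin) and MYL6 (0.59; a myosin essential light chain). ACTG2 resembles ACTA2 closely in its coding sequence, so reads shared between them could be lost from both or counted for either. How such reads were handled is not given in the sources used here. Of 11 non-muscle counterparts 5 rose, among them TPM3 (0.59), TAGLN2 (0.47), ACTN4 (0.42) and MYL12B (0.32), and 2 fell, while ACTB stayed at 2483 to 2663 CPM in both groups.

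Of the 6 SRF cofactors tested 1 rose and 2 fell, where 33.3% of all genes tested passed. MRTFA fell from 79.8 to 90.1 CPM in WT to 56.2 to 59.8 CPM in QKI KO cells (log2 fold change -0.55; edgeR, adjusted p = 5.24e-06), MRTFB fell (-0.33; adjusted p = 0.00996) and ELK3 rose (0.42; adjusted p = 3.42e-05). MYOCD (-0.31), ELK1 (-0.05) and ELK4 (-0.17) did not pass. Of 12 other SRF targets 4 rose and 5 fell. The matricellular gene CTGF (0.92) and FHL2 (0.69), which encodes a LIM-domain cofactor, led the rises, and the immediate early genes FOSB (-0.58) and EGR2 (-0.57) led the falls.

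Of 11 genes of the TGF-beta pathway 4 rose and 3 fell in HLE-B3 cells, where 33.3% of all genes tested passed. TGFBR1 rose from 134 to 145 CPM in WT to 293 to 329 CPM in QKI KO cells (log2 fold change 1.13; edgeR, adjusted p = 5.21e-10). The signal transducers SMAD4 (-0.57) and SMAD2 (-0.54) fell. The 6 fibroblast markers summed to 3887 to 3967 CPM in WT and 1935 to 2248 CPM in QKI KO cells, and the 8 mural cell markers to 238 to 252 and 174 to 183 CPM, both in the direction opposite to ACTA2 and TAGLN. Of the 5 tested fibroblast markers 1 was higher and 2 were lower, and of the 6 tested mural cell markers 3 were lower. The 5 lens epithelial markers summed to 736 to 862 CPM in WT and 1180 to 1331 CPM in QKI KO cells, and 2 of 4 tested were higher, CRYAB (log2 fold change 0.85) and GJA1 (0.53). The part of these shifts in the changes of ACTA2 and TAGLN was not tested.

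**Figure D4:**
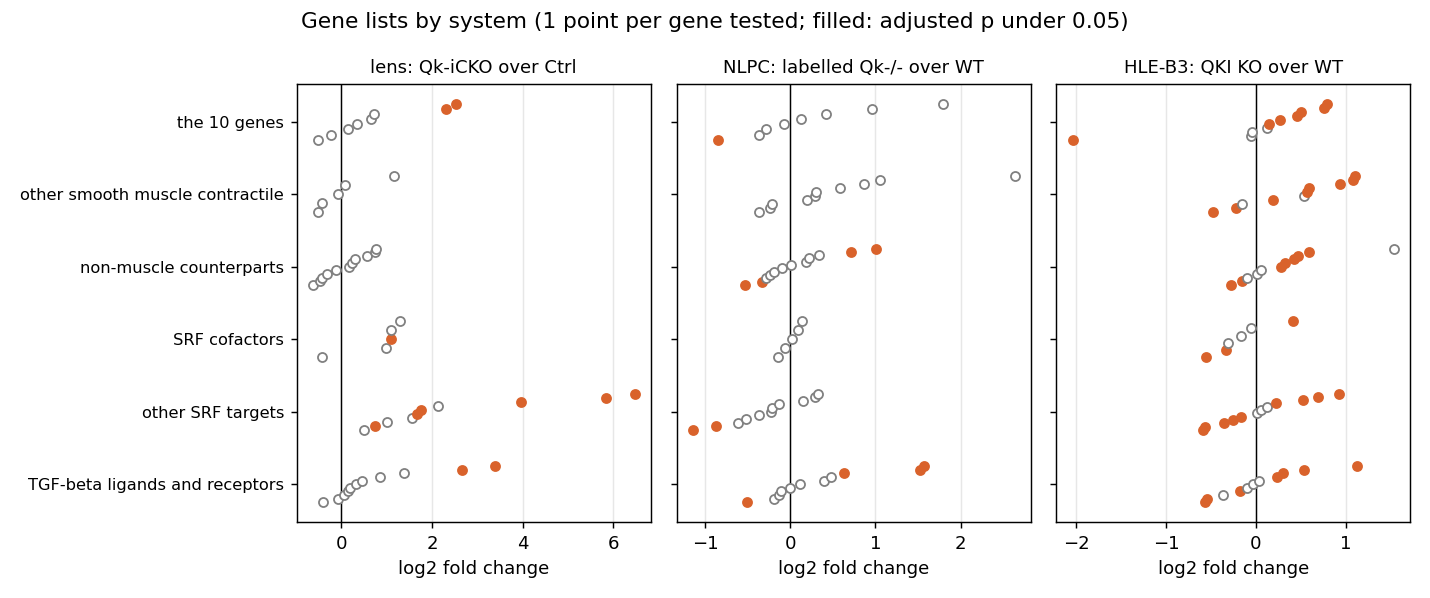
Log2 fold changes after deletion for the 10 genes and 5 lists of related genes (1 point per gene tested; filled: adjusted p under 0.05). In the lens all 10 tested SRF targets lie above 0, among them Fosb, which entered the test only through its Qk-iCKO counts. In HLE-B3 cells 4 filled targets lie above and 5 below.

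Fold changes in HLE-B3 cells were also set beside those of the 50 genes tested nearest on the chromosome, since changes of whole stretches would move a gene with its neighbours. The neighbours of TAGLN on chromosome 11 (GRCh37, chr11:117070086-117078180, plus strand) had a median log2 fold change of 0.40, against 0.79 for TAGLN, which leaves 0.38. Those of ACTA2 on chromosome 10 (chr10:90694831-90751096, minus strand) had a median of -0.07 and those of CNN1 on chromosome 19 (chr19:11649582-11661138, plus strand) one of -0.18, so both genes stood apart from their surroundings. For SRF on chromosome 6 the median was 0.12 and for TPM2 on chromosome 9 it was 0.19, and the genes around TPM1 on chromosome 15 were at -0.40, below TPM1 itself. Whether a chromosomal change has a part in these values was not tested.

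**Figure D5:**
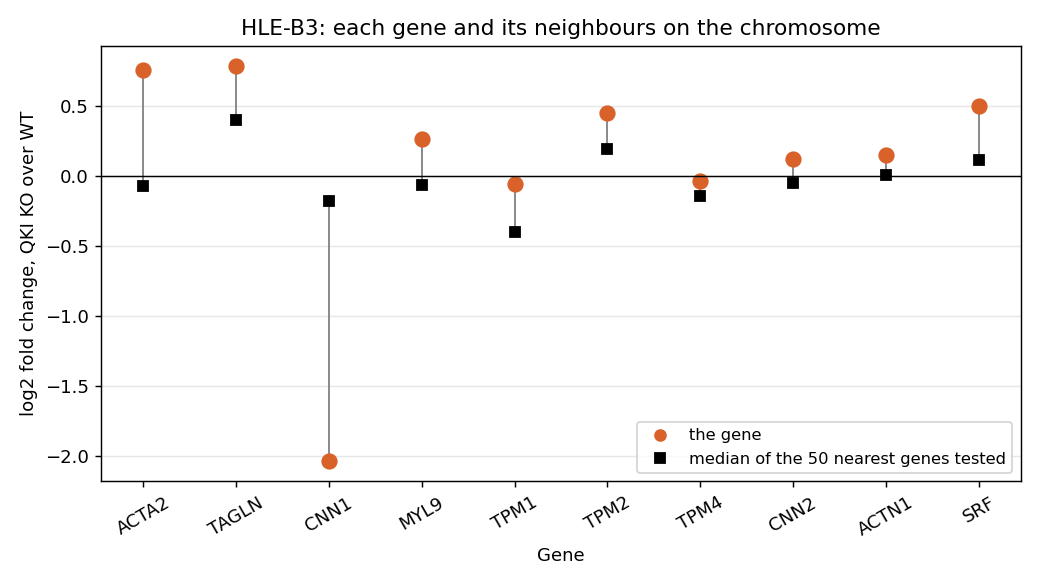
Log2 fold change of each gene in HLE-B3 QKI KO over WT (circles) and the median of its 50 nearest tested genes (squares). TAGLN lies 0.38 above neighbours that are themselves at 0.40, and CNN1, at -2.04, lies below neighbours at -0.18.

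Whether deletion acted differently in the 3 systems was tested on the difference itself, in joint fits of the genes tested in both members of a pair and matched by symbol. Between lens and NLPCs 1 of 6 members differed, where 13.1% of 11226 genes did: the change of Cnn2 in NLPCs less that in lens was -2.83 ± 0.75 (SE) on the log2 scale (edgeR, adjusted p = 0.0274). It no longer passed without Ctrl lens 2 or 3, Qk-iCKO lens 1 or 2, NLPC WT library 2 or 3 or Qk-/- library 1 (adjusted p = 0.0512 to 0.069). Between lens and HLE-B3 cells 2 of 8 differed, where 31.7% of 9642 genes did. The change in HLE-B3 cells less that in lens was -2.05 ± 0.18 for Myl9 (edgeR, adjusted p = 9.35e-06) and -2.46 ± 0.44 for Cnn2 (adjusted p = 0.00127). Cnn2 entered the lens test only through the Qk-iCKO lenses, where it is high, so both of its differences carry that selection. Between NLPCs and HLE-B3 cells 2 of 8 differed, where 34.1% of 11224 genes did. The change in HLE-B3 cells less that in NLPCs was 0.80 ± 0.12 for Tpm4 (edgeR, adjusted p = 0.00026), and -2.86 ± 0.87 for Cnn1 (adjusted p = 0.0238). The last difference was -1.43 and no longer passed without the outlying library Qk-/- 2 (edgeR, adjusted p = 0.0511). It also missed the threshold without NLPC WT library 3, HLE-B3 WT library 2 or QKI KO library 1 (adjusted p = 0.0571, 0.0532 and 0.0502).

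Acta2 could be compared between HLE-B3 cells and lens only, since NLPCs held almost none of it: the difference of 0.43 ± 0.58 did not pass (edgeR, adjusted p = 0.606). For Srf the differences between systems were 0.35 ± 0.17 (HLE-B3 less lens; edgeR, adjusted p = 0.126) and 0.57 ± 0.26 (HLE-B3 less NLPCs; adjusted p = 0.108).

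The genes whose levels ran most like a member's over the 18 libraries, after the mean of each system was removed, came from 9406 genes tested in all 3 systems. For SRF they were DAPK3 (r = 0.91), ZFP64 (0.90), RFK (0.90), RUSC2 (0.89) and PPP1R10 (0.89). For TAGLN they were ADGRE5 (r = 0.91), GNPDA1 (0.88), IGFBP3 (0.87), PVR (0.87) and LRRFIP2 (0.85), and for ACTA2 they were ACTR5 (0.84), TELO2 (0.82), SNRK (0.78), ANKRD13D (0.76) and ALKBH2 (0.76). None of these is a member or on the lists above, and the libraries share depth and group within a system, so the values are a description only.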

How the data were processed

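RNA-seq was analysed in 18 libraries of 3 systems, with 3 libraries per group. The files deposited by the authors hold raw read counts for each gene, without normalization. The study's methods give STAR 2.6.1b for the alignment of stranded paired-end reads (mm10 or hg19) and HTSeq 0.11.0 for counting. The submitters' processing notes also name HISAT2 2.0.4 and featureCounts without a role, and the header of the lens table is of featureCounts' form, so the tool behind that table is uncertain, and the strand setting of the counting is not given in the sources used here: reads of ACTA2, ACTN1 and TPM1 and of their antisense genes cannot be told apart in HLE-B3 cells. Counts of a tropomyosin gene merge its isoforms.

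A separate fit was made for each system in edgeR 4.0.16 (R 4.3.3). It used filterByExpr (count of 10, total count of 15), TMM factors and the quasi-likelihood test without covariates, and a gene was called where its Benjamini-Hochberg p over the whole table was under 0.05. Differences between systems were interaction terms in joint fits. Gene positions came from GENCODE M21 (GRCm38) and GENCODE 44 lifted to GRCh37. Log2 levels used a prior count of 2. The fits were tested on simulated data. Not every human promoter is reported here.

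The members and lists were chosen with earlier results of these data known. All 10 members are named. From other lists at most the 4 called genes with the largest change per system are named, with Qk and the SRF cofactors in any case, and exceptions were chosen after their values were seen (Actb and the summed markers). The study states in general that replicates were independent, but the labels tie no library to an animal or culture, so the spread may be partly technical. For a single value, the smallest two-sided exact permutation p with 3 libraries against 3 is 0.10.

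Same-numbered control and deletion libraries deviated together in lens (correlations 0.233, 0.133 and 0.523) and NLPCs (0.123, 0.32 and 0.145), all over 0.1, but not in HLE-B3 cells (0.0613, 0.0566 and -0.0495). The alternatives were RLE factors or total counts, 2 other filters on low counts, factors without crystallin genes (lens) and the Wald test of DESeq2 1.42.0. Others were a replicate block, each library left out, and 1 term for Y-linked RNA in the lens. That term leaves Qk-iCKO lens 1 alone against the Ctrl lenses, so it cannot adjust for Y-linked RNA.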

Additional observations from a re-analysis of the deposited data

Results flagged for a closer look

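In all, 5 differences between systems passed the test of the difference itself. The change of Cnn2 in NLPCs less that in the lens was -2.83 on the log2 scale (edgeR, adjusted p = 0.0274), from 2.54 in the lens to -0.28 in NLPCs. The change of Cnn2 in HLE-B3 cells less that in the lens was -2.46 (adjusted p = 0.00127), with 0.13 in HLE-B3 cells. Both differences of Cnn2 carry a selection, since it entered the lens test only through the Qk-iCKO lenses. Myl9 gave -2.05 for HLE-B3 cells less lens (adjusted p = 9.35e-06), from 2.32 to 0.27, both called as rises. For HLE-B3 cells less NLPCs, Cnn1 gave -2.86 (adjusted p = 0.0238), from 0.97 to -2.04, and Tpm4 gave 0.80 (adjusted p = 0.00026), from -0.84 to -0.04. Groups of 3 libraries are too small for a test of single outlying libraries.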

How the results depend on the processing

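The rises of Myl9 in the lens and of ACTA2, TAGLN, TPM2 and SRF in HLE-B3 cells and the falls of CNN1 in HLE-B3 cells and Tpm4 in NLPCs kept direction and call under each of the 12 to 14 alternatives run. Lens members called were 1 with at least 10 counts in every library, a filter that removes Cnn2, and 1 to 3 with a library left out. Lens genes called were 886 with total counts, 2521 with every gene kept and 3236 with the term for Y-linked RNA, and 581 to 1709 with a library left out. Of lens calls 68.4% were higher, and 86.7% with total counts. Total counts also moved the median log2 fold change of all genes to 0.29 and the log2 fold change of Tpm1 to 0.0532, a reversal. In DESeq2, NLPC members called were 2 and NLPC genes called 3841. With a library left out they were 1 to 2 and 681 to 3797.

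Other reversals came from a library left out, in members that were not called. The lowest and highest log2 fold changes were -0.17 and 0.86 for Acta2 in the lens, and in NLPCs they were -0.0041 and 0.98 for Tagln, -0.65 and 0.0334 for Cnn2, -0.62 and 1.48 for Cnn1, -0.21 and 2.25 for Tpm2 and -0.25 and 0.17 for Srf. In HLE-B3 cells they were -0.088 and 0.046 for TPM4. Members whose change differed between systems numbered 0 to 1 (lens and NLPC) and 1 to 4 (NLPC and HLE-B3) with a library left out. The causes were not tested.

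With the replicate number as a block, the members called were 2 in the lens, 1 in NLPCs and 7 in HLE-B3 cells, and the genes called were 1982, 2018 and 5901. The block changed the call of no member and of none of the 5 differences between systems. Among the lists the larger moves were of the SRF cofactors called in the lens from 1 to 2, the non-muscle counterparts there from 0 to 2, the other SRF targets there from 6 to 9, the TGF-beta genes there from 2 to 3 and the other smooth muscle genes in NLPCs from 0 to 1, while non-muscle counterparts dropped by 1 call in each cultured system (to 3 and 6). In the lens, Tagln, Cnn1 and Cnn2 rest on few counts, which limits what their values can show.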
